A study of Homo sapiens with 4 samples.

Results

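The genes described here are 9 that matter in pancreatic cancer: CDKN2A, CDKN2B and MTAP, which lie side by side in the 9p21 region of chromosome 9, and the drivers and oncogenes SMAD4, MYC, ARID1A, GATA6, EGFR and CCND1. They were chosen by name, and the array's annotation gave each of the 9 at least 1 probe set with a single gene symbol, 34 probe sets in all, out of 19775 genes so represented. A probe set is a group of short probes that reads one stretch of a transcript. Where a gene had several, the one with the highest mean log2(signal + 1) over the 4 arrays stood for the gene.

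Expression was measured on Affymetrix HG-U133 Plus 2.0 arrays in 2 groups of MIA PaCa-2 cells, a long-established line from a human pancreatic carcinoma. ING3 cells had been transduced with a lentivirus carrying full-length FLAG-ING3 in the pLenti CMV/TO Puro DEST vector, from a CMV promoter, and control cells with a lentivirus carrying GFP. Both were stably selected and grown, in medium with serum and antibiotic, until nearly confluent. ING3 belongs to the TIP60 (NuA4) complex, which acetylates histones, and the comparison asks which transcripts differ when it is overexpressed. Each group had 2 arrays, a and b, which the design text calls technical duplicates. All p-values therefore compare 1 cell population with 1 other and leave out the spread between independent cultures, and the labels do not say how many clones a population held.

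In pancreatic ductal carcinoma CDKN2A is commonly lost by deletion. It encodes INK4A (p16), which blocks the cyclin D kinases CDK4 and CDK6, and, from another first exon and reading frame, ARF, which restrains the p53 ligase MDM2. Its neighbour CDKN2B encodes INK4B (p15), a second inhibitor of the same kinases, and MTAP, the methionine salvage enzyme that cleaves methylthioadenosine, is often lost together with them. MIA PaCa-2 is known as a line with a homozygous 9p21 deletion and an intact SMAD4. An array of transcripts shows whether RNA is detected; a deleted gene and a silent one cannot be told apart with it.

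The arrays shared a scale, with a trimmed mean signal of 500.1 on each. RNA integrity, read from ACTB as 3' over 5' signal, gave ratios of 2.05 and 2.03 on the ING3 arrays and 2.58 and 1.80 on the control arrays. The brightest ING3 probe set had signals of 521 and 541 in ING3 cells and 338 and 373 in control cells. Its log2 difference was 0.58 (SE 0.13), which limma did not call (adjusted p = 0.071), and with the mean of its probe sets it was 0.23. Its other probe sets past the filter had log2 differences of -0.19 and 0.018. Probe positions were not used here, so it is not known which of them read the transgene. KRT18 and VIM were both bright: KRT18 averaged 28563 in ING3 cells and 26070 in control cells, and VIM 25481 in ING3 cells and 26652 in control cells. KRT8 and KRT19 averaged 12571 and 5470 in ING3 cells and 10080 and 3816 in control cells. KRT7 read 80.6 and 77.0 in ING3 cells and 110.7 and 70.3 in control cells. Of the 4 mesenchymal markers 2 reached the filter on dim genes. FN1 and CDH2 were under it, at no more than 90.2 and 35.6 on any array. The epithelial adhesion genes CDH1 and EPCAM were dim, at no more than 37.9 on any array. Of the acinar and endocrine markers with a probe set, 0 of 3 and 0 of 4 reached the filter on dim genes. Of the markers of fibroblasts, leukocytes and endothelium, 3 of 5, 3 of 5 and 2 of 3 reached it. The collagen gene COL1A2 was bright, at 3749 and 3996 in ING3 cells and 4648 and 4548 in control cells. Of the other fibroblast markers, COL1A1 ranged from 181 to 288 and DCN from 56.1 to 97.7 over the 4 arrays. LUM and PDGFRB were at no more than 48.6 and 53.8. CD79A ranged from 249 to 470, LYZ from 83.0 to 153, CD3E from 38.8 to 129, CDH5 from 257 to 328 and PECAM1 from 100.3 to 147 over the 4 arrays, while PTPRC, CD14 and VWF were at no more than 15.97, 60.02 and 17.03. Of the 5 tested epithelial markers 3 rose (KRT19, KRT8 and MUC1), against 1.03% of all tested genes, and the part of this in the results below was not tested. Their calls held in 8, 5 and 4 of 12 alternatives, and all 3 were lost without control array a (adjusted p = 0.19, 0.33 and 0.24 by limma) or without control array b (adjusted p = 0.13, 0.24 and 0.30 by limma).

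Dim signals were read against 2 marks. The filter for testing was the median of all probe sets, a mean log2 of 6.04, or a signal of about 64.6; 61.6% of all genes reached it. The other mark was the 27 control probe sets for Bacillus transcripts, whose medians were 5.85 and 9.17 on the ING3 arrays and 17.01 and 7.59 on the control arrays, and whose highest signals were 42.8 and 45.6 on the ING3 arrays and 50.5 and 32.8 on the control arrays. These controls were picked as a mark after their values were seen. Probe sets differ in affinity, so these marks place a signal near or above background and do not rank transcripts against each other.

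Most probe sets of the 9p21 genes, 8 of 11, read no higher than the brightest Bacillus control in both groups. On GRCh38.p14 MTAP lies on chromosome 9 at chr9:21802636-21941115, CDKN2A at chr9:21967752-21995324 and CDKN2B at chr9:22002903-22009313. Because CDKN2A has 2 start sites for its 2 products, the 250 bases before each of them, and before the single start listed for CDKN2B, are shown as the starts of the 3 cell cycle proteins of the region. They come from RefSeq, read 5' to 3' on the minus strand, with matches to GGGCGG on either strand in capitals, a motif bound by SP1-type factors.
CDKN2A, ARF start, chr9:21995325-21995574: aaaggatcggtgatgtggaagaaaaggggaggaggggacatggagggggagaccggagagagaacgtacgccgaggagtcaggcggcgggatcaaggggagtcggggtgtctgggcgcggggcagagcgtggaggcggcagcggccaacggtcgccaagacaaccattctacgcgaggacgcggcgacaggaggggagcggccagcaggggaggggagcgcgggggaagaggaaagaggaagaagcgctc
CDKN2A, INK4A start, chr9:21974858-21975107: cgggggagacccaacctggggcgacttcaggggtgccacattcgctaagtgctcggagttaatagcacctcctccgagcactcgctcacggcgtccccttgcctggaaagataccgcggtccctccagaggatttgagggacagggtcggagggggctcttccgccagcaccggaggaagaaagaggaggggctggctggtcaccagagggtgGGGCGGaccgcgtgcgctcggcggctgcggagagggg
CDKN2B start, chr9:22009306-22009555: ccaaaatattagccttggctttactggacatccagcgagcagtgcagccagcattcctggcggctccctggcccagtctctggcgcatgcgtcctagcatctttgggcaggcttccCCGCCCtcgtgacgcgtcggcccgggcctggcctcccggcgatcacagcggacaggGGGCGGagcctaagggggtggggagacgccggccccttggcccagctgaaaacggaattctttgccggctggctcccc

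The ARF window held 0, the INK4A window 1 and the CDKN2B window 2 matches to GGGCGG, a motif found in 42.6% of all 35116 RefSeq windows of this length. Windows were listed for 7 of the 9 genes, 9 windows in all, with a GC content of 38.8% to 80.4% against a median of 58.0% over all windows. GGGCGG was in 6 of the 9, TATAAA (either strand, in 10.7% of all windows) in 2 of the 9, and CACGTG (6.34%) in 0 of the 9. These are letters in a window and say nothing about binding. No probe sequences were used here, so none of the 3 CDKN2A probe sets can be assigned to ARF or to INK4A.

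CDKN2A was read by 3 probe sets. The brightest had signals of 125 and 28.6 in ING3 cells and 158 and 95.7 in control cells. It carries the suffix _x_at, which marks probe sets that can cross-hybridise with other transcripts, and 1 ING3 array was far below the other 3 arrays. The second, which the annotation ties to a RefSeq transcript, had 6.97 and 29.6 in ING3 cells and 8.002 and 4.39 in control cells. The third had 8.10 and 2.99 in ING3 cells and 4.06 and 5.36 in control cells. Neither of these dimmer probe sets passed the highest Bacillus control on any array. The gene's log2 difference of -1.02 (SE 0.60, 95% interval -2.38 to 0.33, adjusted p = 0.41 by limma) rested on ING3 array b, and without it the difference was 0.022.

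CDKN2B had signals of 3.89 and 9.28 in ING3 cells and 25.9 and 4.70 in control cells on its brighter probe set. On the other it had 1.28 and 3.91 in ING3 cells and 4.03 and 1.97 in control cells. All 8 of these values lie within the range of the Bacillus controls, the groups overlapped on both probe sets, and the gene did not reach the filter and was not tested.

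Of the 6 MTAP probe sets 1 reached the filter. It had 66.4 and 100.3 in ING3 cells and 57.0 and 69.0 in control cells, and differed by 0.37 on the log2 scale (SE 0.39, 95% interval -0.50 to 1.25, adjusted p = 0.67 by limma), and its groups overlapped. Without ING3 array b the difference was 0.081, without ING3 array a it was 0.67, and with the mean of all 6 probe sets it was 0.85. The probe set that the annotation ties to a RefSeq transcript had 12.4 and 23.2 in ING3 cells and 18.7 and 0.598 in control cells. The other 4 ranged from 3.10 to 47.9 in ING3 cells and from 2.84 to 18.5 in control cells. On 1 of these dim probe sets, at 32.4 and 4.24 in ING3 cells and 2.84 and 3.92 in control cells, the groups did not overlap although every value was under the highest Bacillus control.

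Of the 11 probe sets of CDKN2A, CDKN2B and MTAP together, 8 stayed under the highest Bacillus control on every array, 2 passed it on 1 to 3 arrays, and 1, the brightest of MTAP, passed it on all 4. The low signal was not limited to the 3 genes. Among their neighbours, the genes that start within 2 Mb of either end of the stretch from MTAP to CDKN2A, 24 had a probe set and 2 reached the filter, or 8.33%, against 61.6% of all genes. Of the 24, 20 did not pass the highest Bacillus control on any array.

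The 24 fall into 14 interferon genes, which are silent in most unstimulated cells, and 10 others. FOCAD, which encodes focadhesin and is broadly expressed, had signals of 33.9 and 6.48 in ING3 cells and 9.60 and 3.30 in control cells on its brighter probe set. KLHL9, an adaptor of a CUL3 ubiquitin ligase, had 30.9 and 9.09 in ING3 cells and 17.4 and 13.6 in control cells, and none of its 4 probe sets exceeded 37.0. The transcription elongation factor MLLT3 (highest signal 27.7 over 3 probe sets), the acyl-CoA dehydratase HACD4 (23.4 over 2), the antisense RNA CDKN2B-AS1, also called ANRIL (6.16), CDKN2A-AS1 (10.5), the transcription factor DMRTA1 (6.66), the pseudogene SMNP (19.1) and the neuronal RNA-binding protein gene ELAVL2 (44.2 over 2) were likewise dim.

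The 2 neighbours that reached the filter were IFNA17 and MIR31HG. IFNA17 had 136 and 77.6 in ING3 cells and 263 and 207 in control cells (log2 difference -1.17, SE 0.30, adjusted p = 0.092 by limma). It is read by 1 probe set of the _x_at kind in a family of near-identical genes, so the source of its signal is uncertain. MIR31HG, the host transcript of a microRNA, had 76.3 and 54.6 in ING3 cells and 95.4 and 68.0 in control cells. The other interferon genes were dimmer. IFNA14 was the highest of them, at 37.3 and 59.2 in ING3 cells and 85.3 and 54.7 in control cells. IFNA7, IFNA10 and IFNA16 reached 44.4 to 51.9 on their highest array, IFNA1, IFNA4, IFNA5, IFNW1 and IFNE 14.7 to 28.3, and IFNB1, IFNA2, IFNA8 and IFNA21 no more than 7.72.

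Brighter genes lay outside this stretch, mostly on the side before MTAP. On that side, 16 of the 24 genes that start 2 to 10 Mb away reached the filter, or 66.7%, against 61.6% of all genes. Of the 2 nearest, SLC24A2, an ion exchanger gene, was under the filter, at 38.9 and 31.8 in ING3 cells and 30.5 and 33.6 in control cells. ACER2, a ceramidase gene, reached the filter and lay near it, at 47.1 and 82.6 in ING3 cells and 92.3 and 81.7 in control cells. It passed the highest Bacillus control on all 4 arrays. Next came RPS6, a ribosomal protein gene at 32676 and 36353 in ING3 cells and 35805 and 34281 in control cells, and DENND4C at 1895 and 1928 in ING3 cells and 1994 and 2147 in control cells. Farther out, RRAGA, a GTPase of nutrient sensing, read 4404 and 4213 in ING3 cells and 4125.5 and 4279 in control cells. On the side past CDKN2A, 5 of 15 reached the filter, or 33.3%, and 8 did not pass the highest Bacillus control on any array. The nearest, TUSC1 and LINC01241, were dim, at no more than 36.3 and 31.1 on any array. The first to reach the filter was CAAP1, 5.04 Mb from the MTAP start. The wider stretch was chosen after the values of the neighbours were seen.

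**Figure D1:**
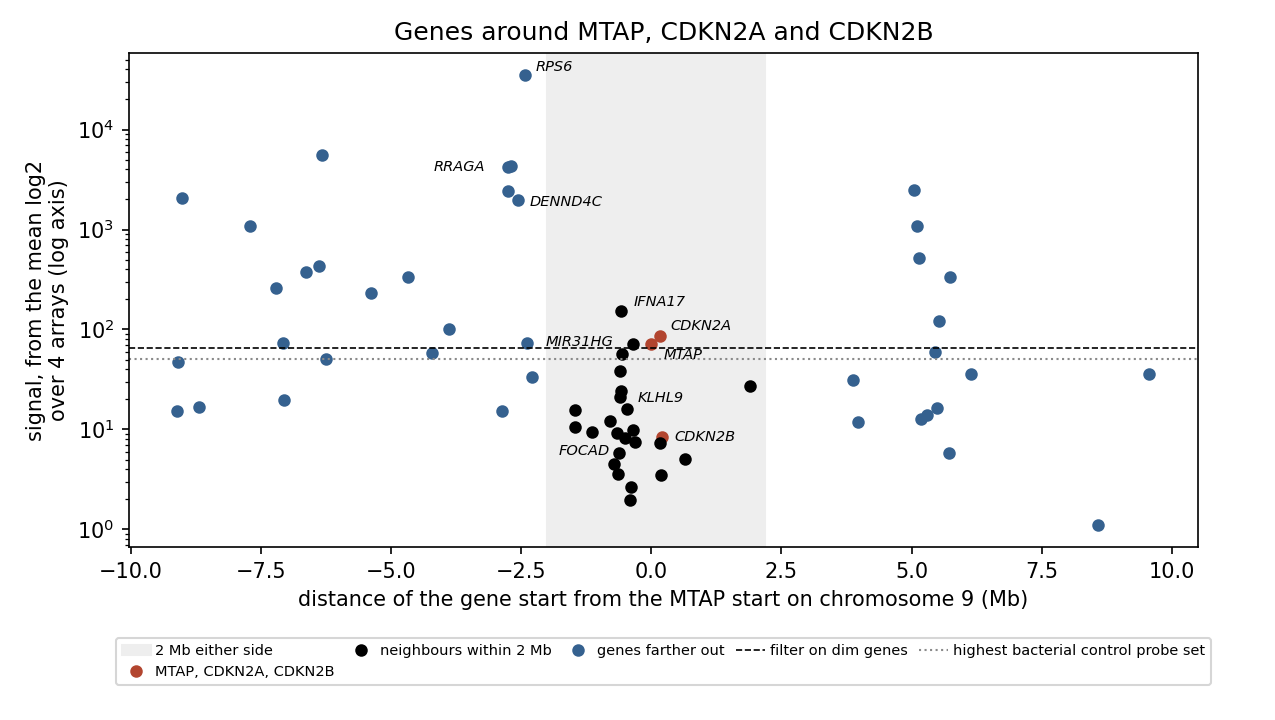
Signal of each gene's brightest probe set (vertical, log axis, back-transformed from the mean log2 over the 4 arrays) against the distance of the gene's start from the start of MTAP on chromosome 9, GRCh38.p14 (horizontal, Mb). Red points are MTAP, CDKN2A and CDKN2B, black points the 24 neighbours within 2 Mb (shaded) and blue points genes farther out; the dashed line is the filter at 64.6 and the dotted line the highest Bacillus control signal, 50.5. The black points lie below the filter apart from IFNA17 and MIR31HG, and points of different genes are not comparable in level.

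The 6 other genes were tested together with all genes, and 0 of the 8 that reached the filter, counting CDKN2A and MTAP, were called by limma at an adjusted p under 0.05, against 1.50% of the 12190 genes tested. At an unadjusted p under 0.05 limma counted 3 of the 8 (MYC, ARID1A and CCND1), against 17.7% of all tested genes. The 2 groups did not overlap for 5 of the 8, against 49.2% of all tested genes, so this count is near the background: ING3 cells were above for 3 (24.3% of all tested genes) and below for 2 (24.9%). The median log2 difference was 0.0049 for the 8 and -0.0074 for all tested genes. CDKN2A reached the filter through the control cells and MTAP through the ING3 cells. In the other group the mean log2 of each lay under the filter, so their place among the 8 depends on their higher group. Of the 34 probe sets 16 reached the filter. In a fit over all 27305 probe sets past it, 0 of the 16 were called (0.370% of all), 4 had an unadjusted p under 0.05 (15.7% of all), and 8 were without overlap (48.1% of all).

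**Figure D2:**
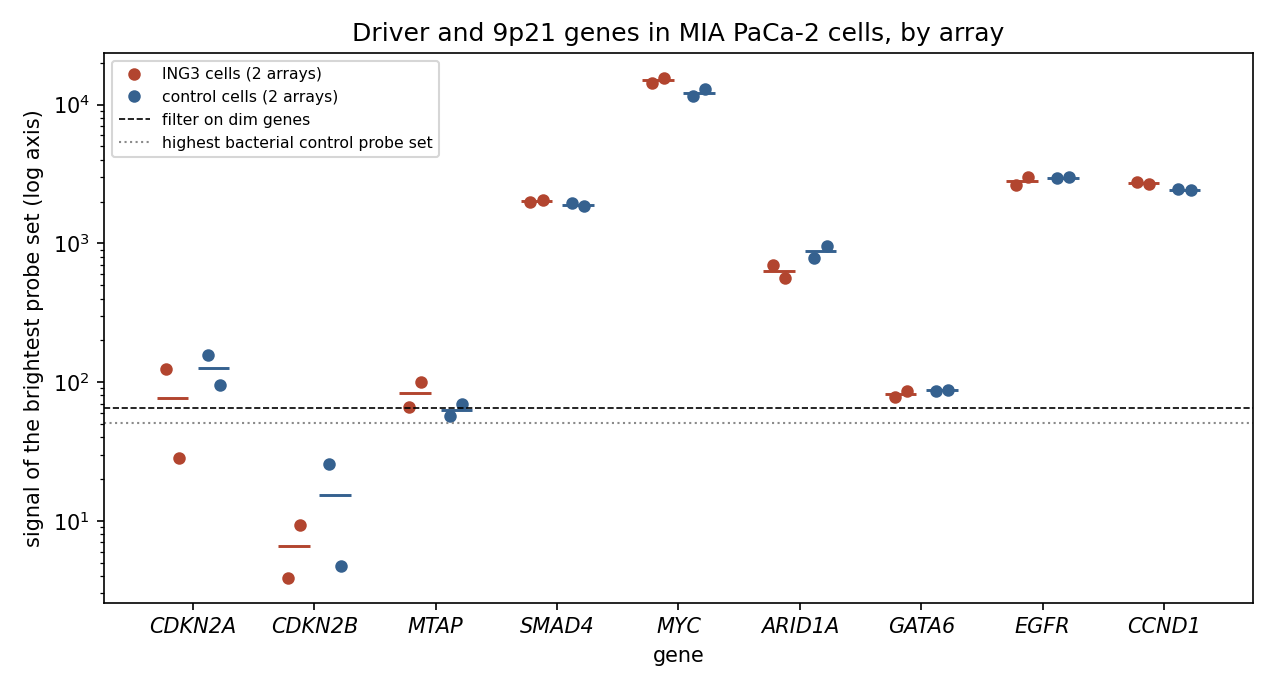
Signal of the brightest probe set of each of the 9 genes (vertical, log axis) on the 2 ING3 arrays (red, left) and the 2 control arrays (blue, right); points are arrays and short lines group means. CDKN2B lies under both reference lines, CDKN2A, MTAP and GATA6 lie near the filter, and the other 5 genes lie well above it, with MYC between 11487 and 15551.

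MYC, the transcription factor that drives growth and ribosome synthesis (chr8:127735434-127742951), had 1 probe set. It read 14311 and 15551 in ING3 cells and 11487 and 12914 in control cells, so both ING3 arrays were above both control arrays. The means were 14931 ± 877 in ING3 cells and 12200.5 ± 1009 in control cells (SD, n = 2 each), 1.22-fold apart, with a log2 difference of 0.29 (SE 0.071, 95% interval 0.13 to 0.45) and an adjusted p of 0.080 by limma. Leaving out single arrays moved the adjusted p across the threshold. Without ING3 array a the difference was 0.35 (adjusted p = 0.035 by limma), and without control array a it was 0.21 (adjusted p = 0.46 by limma). In such fits the lone array of a group is assumed to vary like the duplicates of the other. After quantile normalization the difference was 0.23, and after cyclic loess 0.22.

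Of 12 tested genes of the MYC and MAX network 0 rose and 0 fell by limma (1.50% of all tested genes were called). The median log2 difference was -0.036, and 0 had an unadjusted p under 0.05 by limma (17.7% of all tested genes). MAX, the obligate partner of MYC, averaged 3669 ± 57.4 in ING3 cells and 3959 ± 119 in control cells (SD, n = 2 each; log2 difference -0.11, SE 0.063). MLXIPL, a glucose-responsive relative, had the largest difference of the list at 0.41 (SE 0.29), and MXD1, a MAX partner that opposes MYC, and MLXIP had -0.15 and -0.14. MYCN was under the filter, at 5.89 and 40.2 in ING3 cells and 54.3 and 57.0 in control cells.

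ARID1A, the DNA-binding subunit of the canonical BAF form of the SWI/SNF chromatin remodeller and a tumour suppressor (chr1:26696015-26782104), had a lower mean in ING3 cells on its brightest probe set. The signals were 694 and 560 in ING3 cells and 789 and 957 in control cells, and the groups did not overlap. The log2 difference was -0.48 (SE 0.14, 95% interval -0.79 to -0.17), with an adjusted p of 0.13 by limma. The second probe set, of the _x_at kind, was also lower without overlap but by less, with 480 and 431 in ING3 cells and 501 and 499 in control cells (log2 difference -0.14, SE 0.13). The 2 dim probe sets went opposite ways, at 41.7 and 63.9 in ING3 cells and 50.8 and 107 in control cells on one, and at 61.6 and 34.7 in ING3 cells and 14.7 and 10.9 in control cells on the other. With the mean of all its probe sets in place of the brightest, the difference of ARID1A was 0.17.

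Of 22 other tested SWI/SNF genes 0 rose and 0 fell by limma (1.50% of all tested genes were called). An unadjusted p under 0.05 by limma was found for 2 of the 22 (17.7% of all tested genes). The median log2 difference of the 22 was -0.065. The difference was positive for 6 and negative for 16, against 5891 and 6299 of all tested genes. The ATPase SMARCA4 averaged 3983 ± 324 in ING3 cells and 3954 ± 20.0 in control cells (SD, n = 2 each). ARID1B, the paralog that takes the place of ARID1A in other BAF complexes, had a log2 difference of -0.23 (SE 0.15). DPF1, a subunit of neuronal complexes, and BRD9, of the noncanonical form, had -0.54 (SE 0.27) and 0.30 (SE 0.078), with adjusted p of 0.34 and 0.092 by limma.

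EGFR, the receptor tyrosine kinase for EGF-like ligands (chr7:55019017-55211628), had 9 probe sets, and those that reached the filter did not move together. The brightest read 2642 and 3017 in ING3 cells and 2943 and 2991 in control cells, and the groups overlapped (log2 difference -0.072, SE 0.078, 95% interval -0.25 to 0.10, adjusted p = 0.68 by limma). Its sign turned without ING3 array a, to 0.024. The second brightest, which the annotation ties to a RefSeq transcript, read 1552 and 1623 in ING3 cells and 1203 and 1207 in control cells, and differed by 0.40 on the log2 scale (SE 0.082, adjusted p = 0.091 by limma over probe sets). The third went the other way, at 895 and 841 in ING3 cells and 1186 and 996 in control cells, or -0.33 (SE 0.11, adjusted p = 0.23 by limma over probe sets). On both the groups did not overlap.

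The remaining EGFR probe sets were dim. The fourth read 112 and 76.9 in ING3 cells and 107 and 91.4 in control cells, with overlap. Of the 5 under the filter, 1 of the _x_at kind read 59.7 and 66.0 in ING3 cells and 11.0 and 7.12 in control cells, and the other 4 ranged from 3.45 to 49.8 in ING3 cells and from 6.30 to 68.0 in control cells. These 3 fairly bright probe sets of the same gene gave 3 answers, 1 higher, 1 lower and 1 with no separation, and the gene's difference depends on which is read.

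**Figure D3:**
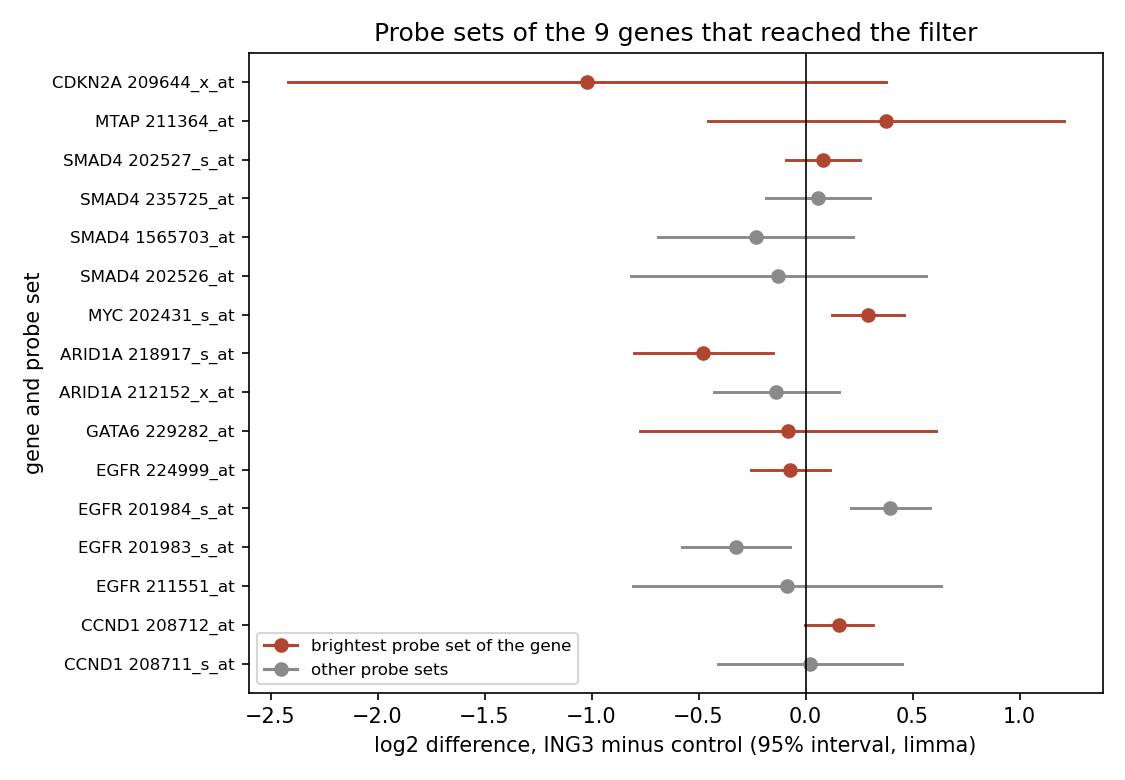
Log2 difference, ING3 minus control, of the 16 probe sets of the 9 genes that reached the filter (points) with the 95% interval of the limma fit over probe sets (lines); red marks the brightest probe set of each gene and grey the others. The EGFR probe sets at 0.40 and -0.33 lie on opposite sides of 0, the points of both ARID1A probe sets lie below 0 and that of MYC above it, and the widest interval is that of CDKN2A.

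Among the partners of EGFR, 1 of 13 tested genes rose and 0 fell, against 1.03% and 0.476% of all tested genes. At an unadjusted p under 0.05 there were 6 of the 13, against 17.7% of all tested genes, and the median log2 difference was 0.039. The gene that rose was ERRFI1 (MIG6), a feedback inhibitor that binds the EGFR kinase domain. It read 27654 and 27886 in ING3 cells and 22208.5 and 21916.5 in control cells, 1.26-fold higher (log2 difference 0.33, SE 0.051, adjusted p = 0.019 by limma). The call was lost without control array a (adjusted p = 0.27) or without control array b (adjusted p = 0.28), where the difference was 0.34 and 0.32.

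Of the tested EGFR ligands, HBEGF and EREG had higher means in ING3 cells and BTC a lower one. None of them passed. HBEGF read 1134 and 843 in ING3 cells and 646 and 628 in control cells (log2 difference 0.62, SE 0.14, adjusted p = 0.068 by limma), and its other probe set past the filter differed by 0.34. Its probe sets under the filter had lower means in ING3 cells. The brighter read 11.6 and 7.47 in ING3 cells and 67.1 and 34.5 in control cells. The dimmer read 1.39 and 8.42 in ING3 cells and 6.85 and 23.5 in control cells. EREG read 10580 and 10071 in ING3 cells and 8829 and 8919 in control cells (log2 difference 0.22, SE 0.056, adjusted p = 0.092 by limma), and its other probe set differed by -0.019. BTC read 892 and 890 in ING3 cells and 1042 and 1060 in control cells. Its log2 difference was -0.24 (SE 0.090, adjusted p = 0.22 by limma). The receptors ERBB3 and ERBB2 had lower means, by log2 differences of -0.41 (SE 0.21) and -0.24 (SE 0.095). So did the small GTPase HRAS, by -0.40 (SE 0.085, adjusted p = 0.058 by limma). The ligands EGF and TGFA and the receptor ERBB4 were under the filter.

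CCND1 encodes cyclin D1, the partner of CDK4 and CDK6 that INK4 proteins oppose, and lies at chr11:69641156-69654474. Its brighter probe set read 2781 and 2666 in ING3 cells and 2460 and 2424 in control cells, so the ING3 arrays were the 2 brightest. The means were 2724 ± 81.2 in ING3 cells and 2442 ± 25.4 in control cells (SD, n = 2 each), a log2 difference of 0.16 (SE 0.067, 95% interval 0.0062 to 0.31, adjusted p = 0.26 by limma). The other probe set read 306 and 298 in ING3 cells and 347 and 254 in control cells, with overlap.

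Of 19 tested genes of the cyclin D, CDK and RB axis 0 rose and 0 fell by limma (1.50% of all tested genes were called). The median log2 difference was 0.011, and 2 had an unadjusted p under 0.05 by limma (17.7% of all tested genes). The kinases CDK4 and CDK6 averaged 5493 ± 69.1 and 1293 ± 86.7 in ING3 cells, against 6087 ± 331 and 1282 ± 41.0 in control cells (SD, n = 2 each). CCND2, E2F1 and the kinase inhibitor CDKN1A had the largest differences, of 0.41 (SE 0.20), -0.38 (SE 0.24) and 0.34 (SE 0.17). Around ARF, 5 genes were tested and 0 were called by limma (1.50% of all tested genes). At an unadjusted p under 0.05 by limma there were 0 of the 5 (17.7% of all tested genes). MDM2, the ligase that ARF restrains, read 1827 and 1899 in ING3 cells and 1838 and 1896 in control cells, and MDM4, its relative, and BAX, a p53 target that promotes apoptosis, had log2 differences of -0.22 (SE 0.13) and -0.15 (SE 0.088).

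Around MTAP, none of 15 tested genes of methionine salvage, polyamine synthesis and the PRMT5 complex was called by limma (1.50% of all tested genes). The median log2 difference was 0.040, and 3 had an unadjusted p under 0.05 by limma (17.7% of all tested genes). PRMT5, the arginine methyltransferase that methylthioadenosine inhibits, read 2177 and 2090 in ING3 cells and 2207 and 2148 in control cells. MAT2A, which makes the methyl donor used by PRMT5, read 8136 and 7554 in ING3 cells and 8551 and 8654 in control cells (log2 difference -0.13, SE 0.060). The salvage enzymes ENOPH1 and MRI1 and the spermine synthase SMS had the largest differences of this list, at 0.18, -0.17 and 0.16.

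SMAD4, the shared partner of the receptor-activated SMADs (chr18:51030213-51085042), was clearly above both marks. Its brightest probe set read 1973 and 2043 in ING3 cells and 1947 and 1849 in control cells, which did not overlap by a small gap. The log2 difference was 0.081 (SE 0.074, 95% interval -0.084 to 0.25, adjusted p = 0.61 by limma). The other probe sets past the filter had differences of 0.059, -0.23 and -0.13, each with overlap. The fifth was dim, at 23.7 and 1.27 in ING3 cells and 25.3 and 24.1 in control cells.

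Of 15 tested TGF-beta and BMP receptors and SMADs 0 rose and 0 fell by limma (1.50% of all tested genes were called). The median log2 difference was -0.0098, and 3 had an unadjusted p under 0.05 by limma (17.7% of all tested genes). SMAD2 and SMAD3, which carry the TGF-beta signal to SMAD4, had differences of -0.0098 and 0.12. The activin receptor ACVR2B had -0.47 (SE 0.21), the SMAD corepressor SKIL 0.35 (SE 0.13) and SMAD9 0.27 (SE 0.13). The type II receptor TGFBR2 was under the filter, at 32.5 and 36.5 in ING3 cells and 92.7 and 30.5 in control cells, and so were both inhibitory SMADs. SMAD6 read 126 and 53.04 in ING3 cells and 42.3 and 32.7 in control cells, and SMAD7 read 5.94 and 5.85 in ING3 cells and 36.8 and 10.8 in control cells. The groups did not overlap for either gene. All SMAD7 values and both SMAD6 control values lay under the highest Bacillus control of their array, so no direction is read from them.

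GATA6, a zinc finger factor of foregut identity and a marker of the classical pancreatic cancer subtype (chr18:22169589-22202528), was dim. It read 78.3 and 85.9 in ING3 cells and 86.4 and 87.5 in control cells on its brighter probe set, where the control arrays were above the ING3 arrays by a small gap, and 24.5 and 21.2 in ING3 cells and 5.87 and 23.3 in control cells on the other. The log2 difference was -0.083 (SE 0.33, 95% interval -0.81 to 0.65, adjusted p = 0.93 by limma), with a sign that turned to 0.068 after quantile normalization or cyclic loess. Of 14 related transcription factors with a probe set, 7 reached the filter and 0 were called by limma (1.50% of all tested genes). The median log2 difference of the 7 was -0.038, and 0 had an unadjusted p under 0.05 by limma (17.7% of all tested genes). GATA4 read 483 and 452 in ING3 cells and 404 and 382 in control cells (log2 difference 0.25, SE 0.13). KLF5 and FOXA1 had differences of -0.26 and -0.23. KLF5 read 72.8 and 56.3 in ING3 cells and 75.9 and 77.4 in control cells. It lay near the filter, which the mean log2 of the control cells reached and that of the ING3 cells did not. The pancreatic factor PDX1 and the foregut factor FOXA2 were at no more than 34.3 and 21.3 on any array. Low signal was not general in this list, as SOX9, GATA2 and GATA3 were well above the filter. SOX9 read 7014 and 7966 in ING3 cells and 7168 and 7840 in control cells. GATA2 read 716 and 554 in ING3 cells and 836 and 470 in control cells. GATA3 read 556 and 547 in ING3 cells and 588 and 546 in control cells.

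Of 17 other tested drivers of pancreatic cancer 0 rose and 0 fell by limma (1.50% of all tested genes were called). The median log2 difference was -0.094, and 1 had an unadjusted p under 0.05 by limma (17.7% of all tested genes). The largest differences were those of the guidance ligand SLIT2 (-0.34, SE 0.40), the DNA damage kinase ATM (-0.30, SE 0.13) and the histone methyltransferase KMT2C (-0.24, SE 0.10). SLIT2 read 61.7 and 54.7 in ING3 cells and 61.4 and 89.3 in control cells, with overlap. It lay near the filter, which the mean log2 of the control cells reached and that of the ING3 cells did not. RNF43, a ligase that limits WNT signalling, was under the filter, at 11.3 and 12.7 in ING3 cells and 50.8 and 44.4 in control cells. ERRFI1 was thus the 1 call in the 9 partner lists shown in the plot of partner genes.

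**Figure D4:**
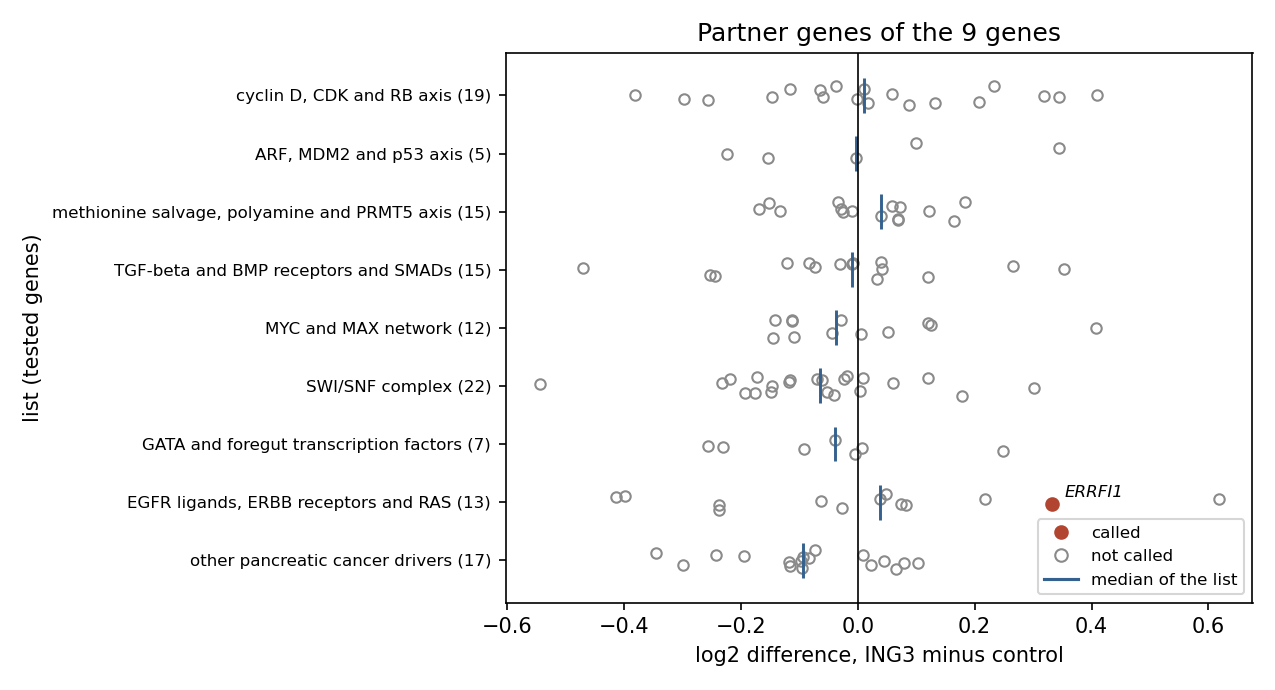
Log2 difference, ING3 minus control (horizontal), of the tested genes of 9 partner lists (rows, with the number of tested genes); filled red points were called by limma, open points were not, and blue bars are list medians. The medians lie between -0.094 and 0.040, and ERRFI1, at 0.33, is the called gene.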

How the data were processed

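The deposited table held linear signal intensity for 54675 probe sets on 4 arrays, made by the authors; the submitters' processing notes name MAS5 and Affymetrix Expression Console, without versions. It held no detection calls, and no value column was left unmapped. As MAS5 subtracts mismatch signal, values of dim probe sets scatter widely. The number of arrays limits the precision.

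Probe sets were named from GEO's 2016 platform annotation, updated through RefSeq gene IDs; 41091 had 1 symbol, 1801 several and 11721 none here, and 62 controls were left out. Signals were taken as log2(signal + 1), a scale that understates changes of dim genes. Genes reaching the median of all probe sets were tested by the limma package, version 3.58.1, under R 4.3.3 (intensity trend, two-sided, Benjamini-Hochberg over all 12190 genes, called under 0.05); the script was tested on simulated data. Each fit had 2 residual degrees of freedom and borrowed 7.35. The duplicates' deviations correlated at r = 0.029 across genes between the groups, so the letters a and b do not pair the arrays.

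The genes and lists were chosen with earlier results of these data known. Named are all 9 genes, every 9p21 neighbour by value or range, called genes of each list and otherwise its 3 largest differences. Other names were added after their values were seen. These are MAX, SMARCA4, CDK4, CDK6, MDM2, PRMT5, MAT2A, SMAD2, SMAD3, EREG, BTC, ERBB2, PDX1, FOXA2, SOX9, GATA2 and GATA3. Genes given as under the filter and genes beyond 2 Mb were also added in this way.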

Additional observations from a re-analysis of the deposited data

How the results depend on the processing

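With 2 technical duplicates per group, the count of called genes depended strongly on the settings. It was 183 in the reported fit, 54 with no filter on dim genes, 119 after quantile normalization, 37 with the mean of a gene's probe sets and 442 with the replicate block, and 0 without the intensity trend, where limma still counted 1686 genes at an unadjusted p under 0.05. Leaving out single arrays gave 2 to 305 genes: 305 without ING3 array a, 181 without ING3 array b and 2 without either control array. Of the 9 genes described, 0 were called in the reported fit, 1 (MYC, adjusted p = 0.024 by limma) with the replicate block, and 0 to 1 without single arrays, again MYC without ING3 array a. Signs turned with the mean of a gene's probe sets for ARID1A (0.17), CDKN2A (0.076), EGFR (0.38), GATA6 (0.40) and SMAD4 (-0.40), after quantile normalization and cyclic loess for GATA6 (0.068 in both), and without single arrays for CDKN2A (-2.07 to 0.022), EGFR (-0.17 to 0.024) and CDKN2B (-1.92 to 0.31). The causes of these changes were not tested. ING3 itself was called with the replicate block (0.58, adjusted p = 0.040 by limma) and not in the other 11 alternatives. The signs of MYC and CCND1 held in all 12 alternatives, but much of this was fixed in advance. The filter, trend and block settings leave the difference unchanged, and groups that do not overlap keep their sign without any single array. MTAP, whose groups overlapped, also kept its sign in all 12, at 0.081 to 0.85. Signals near the Bacillus controls carry no usable difference.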
